A study of Mus musculus with 8 samples.

Results

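The core spliceosome protein genes are the 49 genes, of 25526 symbols listed in the count tables, whose symbol begins with Prpf, Sf3a, Sf3b, Snrpa to Snrpg, Lsm followed by a number, or U2af. All 49 had enough counts to be tested. They were measured in bulk RNA sequencing of aortic tissue from male Marfan mice of genotype Fbn1C1041G/+ (MFS), who carry a single copy of a mutant gene for fibrillin-1, the microfibril protein altered in Marfan syndrome. There were 4 libraries from mice aged 2 years, whose aneurysms are described as growth arrested, and 4 from mice aged 12 weeks, with growing aneurysms. Every mouse carried the allele and no other genotype was analysed here, so age and the state of the aneurysm cannot be told apart. The labels give no batch, and a batch that followed age could not be told apart from it either. The labels do not say whether a library holds 1 aorta or a pool, and p-values measure the spread between these libraries.

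The spliceosome removes introns from pre-mRNA. It is built anew on each intron from small nuclear ribonucleoproteins (snRNPs), each an RNA wrapped in a ring of Sm or LSM proteins and carrying its own particle-specific proteins. The U1 snRNP marks the donor splice site, U2AF and the U2 snRNP with its SF3A and SF3B complexes mark the acceptor site and the branch point, and the tri-snRNP of U4, U6 and U5 brings in the catalytic core with the PRPF proteins. Cells of the aortic wall, smooth muscle cells included, need this machinery. Some members, taken by their symbol, act outside it: Lsm1, Lsm10, Lsm11, Lsm14a and Lsm14b have the other roles described below. Lsm12 is grouped with these genes below.

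Levels are given as CPM, counts per 1e6 counts of a library after scaling by the trimmed mean of M values. A log2 fold change sets 2 years over 12 weeks and is negative where a gene was lower at 2 years. Library totals ran from 16251986 to 33880690 counts at 2 years and from 23622803 to 27417541 counts at 12 weeks, the lowest and the highest both at 2 years. The 5 smooth muscle markers checked (Myh11, Acta2, Tagln, Cnn1 and Smtn) summed to 15577 to 24325 CPM at 2 years and 27048 to 32453 CPM at 12 weeks, so the defining markers of the labelled tissue were present, and 3 of the 5 fell. Markers of immune cells and of red blood cells were higher at 2 years. All 7 macrophage markers rose, with a summed level of 1582 to 2054 CPM at 2 years and 395 to 537 CPM at 12 weeks, as did all 6 T and NK cell markers (38.6 to 61.4 CPM at 2 years and 4.18 to 10.04 CPM at 12 weeks) and all 6 B and plasma cell markers (236 to 1220 CPM at 2 years and 1.58 to 2.44 CPM at 12 weeks). All 3 red blood cell markers rose too (1157 to 5180 CPM at 2 years and 271 to 449 CPM at 12 weeks, highest in 2 years replicate 2). No marker of these lists was at 0 in all libraries. The part of these cells in the results on spliceosome genes was not tested. In bulk tissue, fewer cells of a type and less RNA per cell cannot be told apart. 2 years replicate 3 stood apart, with the lowest total, 10.3% of counts from mitochondrial genes and the lowest smooth muscle sum, and 12 weeks replicate 3 had 995 CPM of heart muscle markers, against 76.7 to 111 CPM in the other 12-week libraries.

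The core spliceosome genes did not move together. At 2 years 17 of the 49 rose and 8 fell (edgeR, adjusted p below 0.05), a share of 51.0% changed where 52% of all 13978 genes tested changed. The share that rose was 34.7%, beside 25.8% of all genes, and the share that fell was 16.3%, beside 26.2% of all genes. The median log2 fold change was 0.23 for the members (0.14 without 2 years replicate 3) and -0.01 for all genes. Once transcript length and GC share were allowed for, as described below, the members' median turned to -0.09, beside -0.06 for all genes. Of the 14 genes of the Sm ring and the nuclear LSM ring 11 rose and 0 fell, although 2 were higher and 1 lower once transcript length and GC share were allowed for. Prpf39, Prpf40b, Prpf4b and Sf3b1 fell at least 2-fold. Of the 11 genes of SF3A, U2AF and the PRPF part of the tri-snRNP 10 did not pass the test, beside 6706 of all 13978 genes tested. With length and GC share allowed for, 1 SF3A gene was higher and 1 lower, and all 3 U2AF genes were lower. Of the 5 PRPF genes of the tri-snRNP 1 was then higher and 1 lower. Of all genes 22.8% were higher and 28% lower with this allowance. In the test without this allowance, 3 members rose and 4 fell with a change of at least 2-fold as well, beside 11.7% and 10.6% of all genes. The libraries of the ages did not overlap in 18 members that were higher and 7 that were lower, beside 24.3% and 25.3% of all genes. Together the members held 0.222 to 0.238% of counts at 2 years and 0.239 to 0.242% at 12 weeks.

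**Figure D1:**
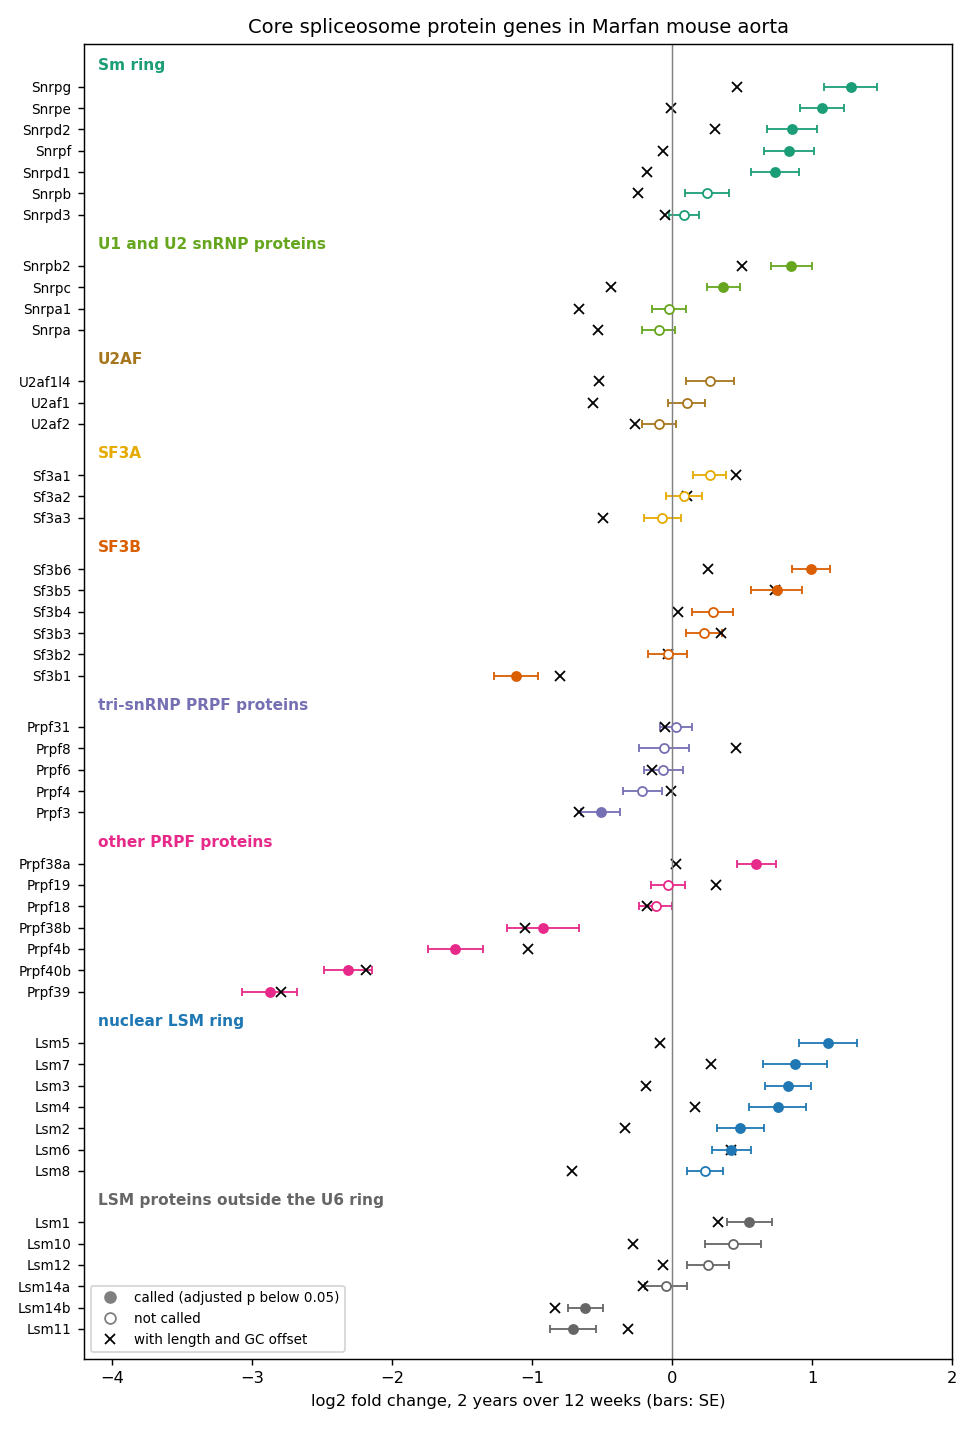
Log2 fold change, 2 years over 12 weeks, of 48 of the 49 members (x axis; bars are standard errors), ordered by particle down the page. Filled points passed the test; crosses show the value with the length and GC offset, which takes a trend on transcript length and GC share out of each library. Prpf39, Prpf40b and Prpf4b lie at -2.87, -2.31 and -1.55, and the crosses of the Sm ring and the nuclear LSM ring have medians of -0.05 and -0.09.

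Fold changes in these libraries followed transcript length. When all genes were put in 10 bins by length, the bins' median log2 fold change was 0.60 at a median length of 1034 nt and -0.64 at 8292 nt. Over the 49 members the Spearman correlation of log2 fold change with transcript length was -0.65 and Pearson's r with log2 length was -0.58, a description across genes that share the same 8 libraries. With length and GC share allowed for, these were 0.14 and -0.018. The slope of log2 CPM on log2 length was -0.315 to -0.107 in the 2-year libraries and 0.125 to 0.261 in the 12-week libraries. Values are therefore also given after a smooth trend on length and GC share was taken out of each library, called the length and GC offset. With it 9 members were higher and 15 lower, where 22.8% and 28% of all genes were and 50.9% were called in either direction. Of the 17 that rose, 5 kept their call and direction with the offset, and of the 8 that fell, 7 did. Of 19 members with transcripts under 1500 nt, 12 rose and 0 fell without the offset, against 2 higher and 6 lower with it. Of all genes 25.8% rose and 26.2% fell without the offset. Short genes in general were shifted up: in the bin with a median length of 1034 nt the lower quartile of log2 fold change was 0.23.

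**Figure D2:**
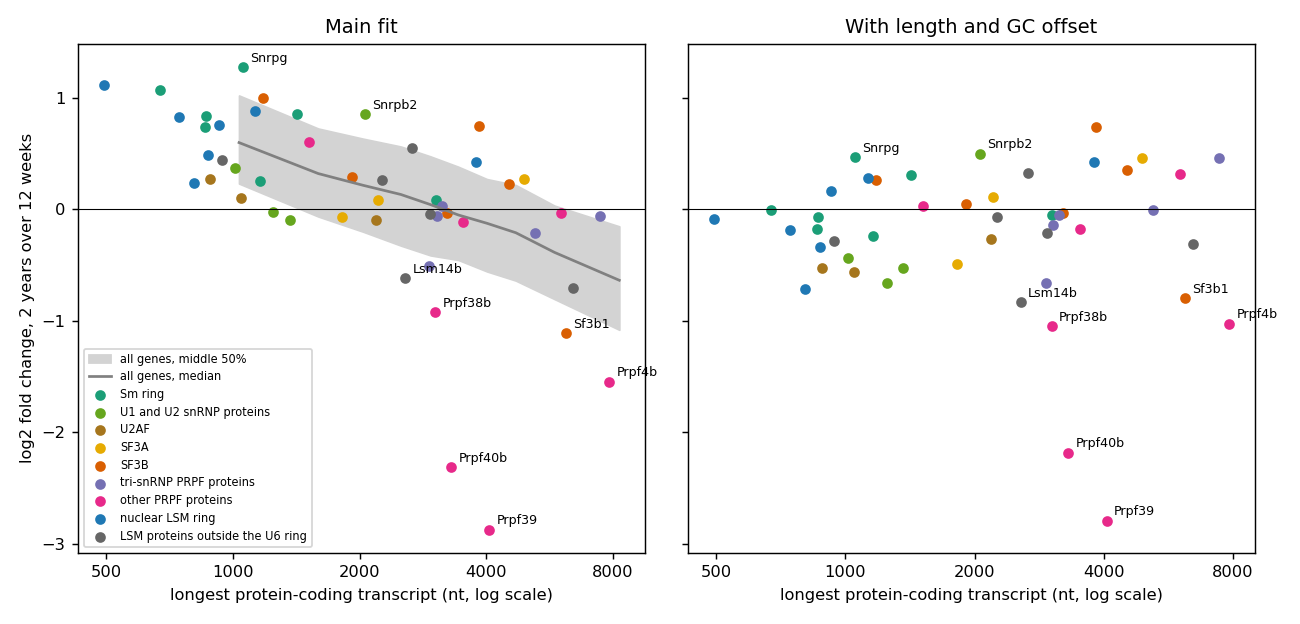
Log2 fold change, 2 years over 12 weeks (y axis), against the length of the longest protein-coding transcript (x axis, log scale) for 48 of the 49 members, coloured by particle, without (left) and with (right) the length and GC offset. In the left panel a grey line and band give the median and middle 50% of all genes in 10 length bins. Prpf39 and Prpf40b lie at -2.87 and -2.31 on the left, and at -2.79 and -2.18 on the right.

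Promoter sequences are shown for members at both ends of the range, the 3 that fell and the 3 that rose with the smallest p, and Snrpb2, which rose in each alternative run. Of the 49 members 39 matched an entry by symbol. Each line gives the 200 bases before the annotated start, 5′ to 3′ on the gene's strand, from RefSeq on build GRCm38.p6; capitals mark the motifs searched on both strands. RefSeq lists 2 starts for Prpf40b, of which the first listed is shown.
Prpf39, chr12:65036134-65036333, plus strand: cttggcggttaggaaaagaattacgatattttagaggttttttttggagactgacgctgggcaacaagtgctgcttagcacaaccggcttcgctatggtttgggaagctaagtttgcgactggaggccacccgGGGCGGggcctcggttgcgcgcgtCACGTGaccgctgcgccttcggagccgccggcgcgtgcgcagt
Prpf40b, chr15:99295041-99295240, plus strand: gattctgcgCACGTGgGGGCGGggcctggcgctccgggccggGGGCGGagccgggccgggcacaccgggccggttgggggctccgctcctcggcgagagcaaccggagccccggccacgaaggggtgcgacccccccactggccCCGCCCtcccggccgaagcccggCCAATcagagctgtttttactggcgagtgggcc
Prpf4b, chr13:34875329-34875528, plus strand: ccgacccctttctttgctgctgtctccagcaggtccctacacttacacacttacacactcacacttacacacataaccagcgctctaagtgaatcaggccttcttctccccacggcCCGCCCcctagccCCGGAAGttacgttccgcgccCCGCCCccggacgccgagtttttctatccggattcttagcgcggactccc
Sf3b6, chr12:4817408-4817607, plus strand: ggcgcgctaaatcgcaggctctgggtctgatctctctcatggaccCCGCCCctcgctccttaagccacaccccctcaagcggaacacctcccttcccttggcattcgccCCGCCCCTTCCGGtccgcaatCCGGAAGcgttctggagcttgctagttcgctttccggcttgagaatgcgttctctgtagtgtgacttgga
Snrpe, chr1:133610281-133610480, minus strand: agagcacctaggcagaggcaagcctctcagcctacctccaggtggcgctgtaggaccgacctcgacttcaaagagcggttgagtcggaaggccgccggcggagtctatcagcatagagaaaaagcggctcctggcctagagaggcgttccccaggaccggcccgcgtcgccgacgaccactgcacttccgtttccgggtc
Snrpg, chr6:86371340-86371539, plus strand: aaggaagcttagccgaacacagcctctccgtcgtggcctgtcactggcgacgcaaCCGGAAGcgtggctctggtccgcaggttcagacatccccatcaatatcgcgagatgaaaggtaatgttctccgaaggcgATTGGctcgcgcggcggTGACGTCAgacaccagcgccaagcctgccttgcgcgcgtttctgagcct
Snrpb2, chr2:143062869-143063068, plus strand: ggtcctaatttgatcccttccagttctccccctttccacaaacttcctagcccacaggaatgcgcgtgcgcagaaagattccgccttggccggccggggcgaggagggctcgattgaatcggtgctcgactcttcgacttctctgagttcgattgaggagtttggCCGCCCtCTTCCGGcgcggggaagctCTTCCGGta

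The motifs searched were the GC box (GGGCGG), the CCAAT box (CCAAT), the ETS core (CCGGAAG), the E-box (CACGTG), the cAMP response element (TGACGTCA), the TATA box (TATAAA) and a YY1 core (AAGATGGC), each with its reverse complement, in the 250 bases before the start. In Sf3b6 a GC box and an ETS core lie side by side, so their capitals run together. Of the 39 member promoters 22 held a GC box (56.4%, beside 32.9% of 27025 promoters of all genes), 12 an ETS core (30.8%, beside 7.05%), 16 a CCAAT box (41%, beside 34.5%) and 2 a TATA box (5.13%, beside 13%). The GC box was found in 7 of 8 members that fell and 7 of 13 that rose, and the ETS core in 1 of 8 that fell and 5 of 13 that rose. In the sequences shown, Prpf39 has a GC box and an E-box, Prpf40b has 3 GC boxes, an E-box and a CCAAT box, and Prpf4b has 2 GC boxes and an ETS core. Sf3b6 and Snrpb2 have 2 ETS cores each beside GC boxes, Snrpe has none of the motifs in the bases shown, and Snrpg has an ETS core, a CCAAT box and a cAMP response element. These are letters found in a window and were not tested against the fold changes.

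The largest changes of the members were decreases among the PRPF proteins that stand outside the tri-snRNP. Of 8 such genes 4 fell and 1 rose, where 26.2% and 25.8% of all genes did. The group's median log2 fold change was -0.52. Prpf39, whose yeast counterpart Prp39 is a U1 snRNP protein, was at 14.3, 7.68, 9.10 and 9.90 CPM in 2 years replicates 1 to 4, against 74.9, 88.1, 75.8 and 63.5 CPM in 12 weeks replicates 1 to 4. The highest 2-year library lay far below the lowest 12-week library. Prpf39 averaged 10.2 ± 2.87 CPM at 2 years and 75.5 ± 10.1 CPM at 12 weeks (SD, n = 4 each), a 7.33-fold decrease (log2 fold change -2.87, SE 0.20, edgeR adjusted p = 1.8e-06). A total of 128 of 13978 genes tested had a lower fold change. Allowing for length and GC share left it at -2.79 (adjusted p = 1.25e-06). In GENCODE M21 an exon of Prpf39 overlaps Fkbp3 on the opposite strand, and whether counting used strand is not given in the sources used here; Fkbp3 was at 28.4 CPM at 2 years and 25.7 CPM at 12 weeks (adjusted p = 0.403).

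Prpf40b, a relative of the yeast U1 snRNP protein Prp40, was at 7.36, 5.67, 6.83 and 9.41 CPM in 2 years replicates 1 to 4, against 41.1, 37.9, 31.1 and 35.9 CPM in 12 weeks replicates 1 to 4. Its groups did not overlap. It averaged 7.32 ± 1.56 CPM at 2 years and 36.5 ± 4.16 CPM at 12 weeks (SD, n = 4 each), a 4.97-fold decrease (log2 fold change -2.31, SE 0.17, edgeR adjusted p = 2.45e-06), and its value with the offset was -2.18 (adjusted p = 3.22e-06).

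Prpf4b, a kinase that phosphorylates tri-snRNP proteins, was at 43.4, 27.04, 56.3 and 43.1 CPM in 2 years replicates 1 to 4, against 124, 140.2, 122 and 110.0 CPM in 12 weeks replicates 1 to 4. All 2-year libraries were below all 12-week libraries. The decrease was 2.92-fold (log2 fold change -1.55, SE 0.20, edgeR adjusted p = 8.8e-05), and the log2 fold change was -1.03 (adjusted p = 0.00145) with the offset, on a transcript of 7844 nt. Prpf38b was at 38.8, 26.6, 72.8 and 38.2 CPM in 2 years replicates 1 to 4, against 86.8, 94.9, 79.4 and 72.1 CPM in 12 weeks replicates 1 to 4. Here the groups overlapped, because 2 years replicate 3 lay within the 12-week range. Prpf38b fell 1.89-fold (log2 fold change -0.92, SE 0.26, edgeR adjusted p = 0.012), and its log2 fold change was -1.27 without that library. Its relative Prpf38a, a protein of the precatalytic spliceosome, was at 30.3, 32.5, 24.6 and 25.1 CPM in 2 years replicates 1 to 4, against 16.9, 21.1, 17.2 and 19.0 CPM in 12 weeks replicates 1 to 4. Prpf38a rose 1.52-fold (log2 fold change 0.60, SE 0.14, edgeR adjusted p = 0.0037), with a log2 value of 0.03 (adjusted p = 0.848) under the offset. The log2 ratio of Prpf38b to Prpf38a was 0.36, -0.29, 1.56 and 0.61 at 2 years, against 2.36, 2.16, 2.20 and 1.92 at 12 weeks, with no overlap. The mean log2 ratio differed by -1.60 (exact permutation test, two-sided, p = 0.0286, the smallest that 4 against 4 libraries allow; adjusted over the 7 ratios examined, 0.05, which is not below the threshold). With the length and GC offset the difference in that ratio was -1.17 and the groups overlapped (exact permutation p = 0.0571, adjusted 0.1). Prpf19, the ubiquitin ligase at the heart of the complex that activates the spliceosome, was at 63.3, 63.8, 80.1 and 72.6 CPM in 2 years replicates 1 to 4, against 78.8, 67.2, 69.9 and 70.1 CPM in 12 weeks replicates 1 to 4, with groups that overlapped (log2 fold change -0.03, SE 0.12, edgeR adjusted p = 0.84). Under the offset its direction turned and it was called higher, at 0.31 (adjusted p = 0.0385). That call was lost with the offset and the replicate block (edgeR adjusted p = 0.0891). The annotated coding transcripts of Prpf19 run from 2134 to 6035 nt, and its value with the offset rests on the longest. Prpf19 also has 1 near-identical pseudogene copy. Prpf18, which acts in the exon-joining step, was also not called (log2 fold change -0.12, SE 0.12, edgeR adjusted p = 0.416).

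**Figure D3:**
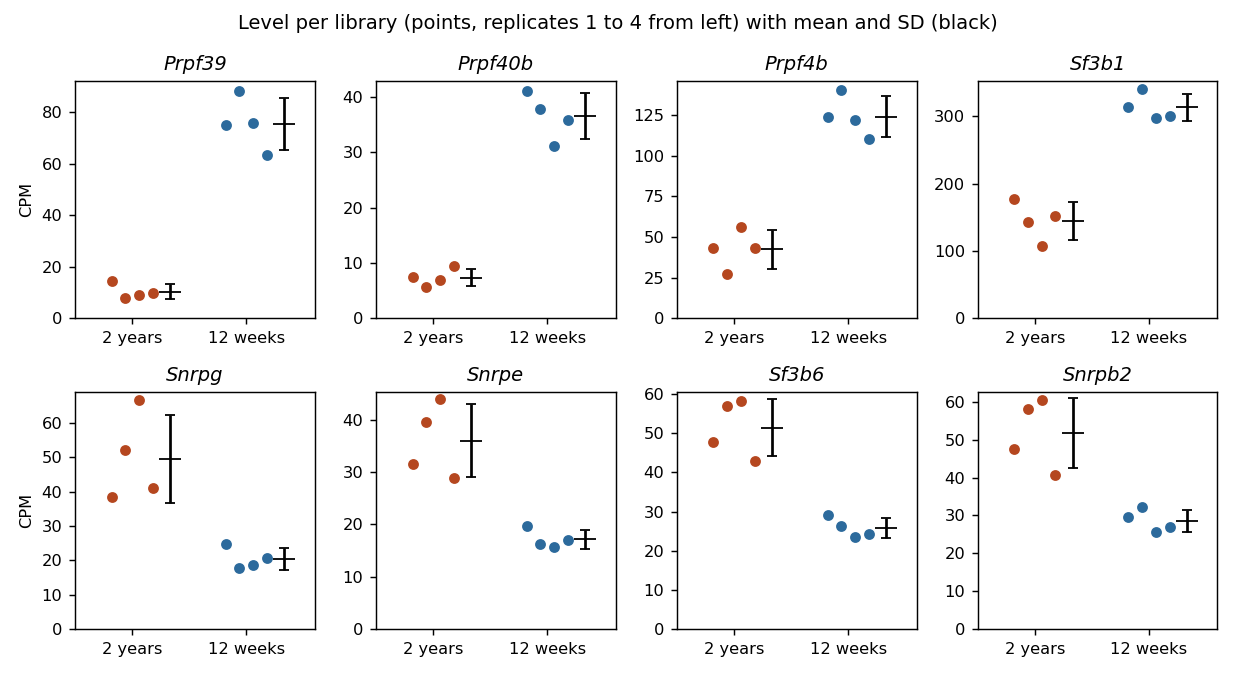
CPM in each library (points; 2 years left, 12 weeks right, replicates 1 to 4 from left within a group) with group mean and SD (black), for 4 members that fell and 4 that rose. In each panel the groups do not overlap; Sf3b1 has the highest level, at 145 CPM at 2 years and 313 CPM at 12 weeks.

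SF3B, the complex of the U2 snRNP that grips the branch point, divided within itself. Sf3b1, its scaffold and the member with the highest 12-week CPM of all 49, was at 176, 143, 107 and 152 CPM in 2 years replicates 1 to 4, against 314.01, 341, 298 and 300.0 CPM in 12 weeks replicates 1 to 4. The groups did not overlap and 2 years replicate 3 was the lowest. Sf3b1 averaged 145 ± 28.7 CPM at 2 years and 313 ± 19.7 CPM at 12 weeks (SD, n = 4 each), a 2.16-fold decrease (log2 fold change -1.11, SE 0.16, edgeR adjusted p = 0.000175), and its log2 fold change was -0.80 (adjusted p = 0.000347) with the offset. Sf3b6, the small subunit that lies near the branch adenosine, was at 47.7, 57.0, 58.3 and 42.9 CPM in 2 years replicates 1 to 4, against 29.1, 26.3, 23.6 and 24.3 CPM in 12 weeks replicates 1 to 4. Here every 2-year library was above every 12-week library. It rose 1.99-fold (log2 fold change 0.99, SE 0.14, edgeR adjusted p = 0.000142), and its log2 fold change was 0.26 (adjusted p = 0.0499) with the offset. Sf3b5, another small subunit, rose 1.68-fold (log2 fold change 0.75, SE 0.18, edgeR adjusted p = 0.00587), with a log2 value of 0.74 (adjusted p = 0.016) under the offset for its only annotated coding transcript, of 3841 nt. The other subunits did not pass the test, with log2 fold changes of -0.03 for Sf3b2, 0.23 for Sf3b3 and 0.29 for Sf3b4. However, Sf3b3 and Sf3b4 were called higher without 2 years replicate 3. Sf3b3 was also called higher with the offset, at 0.35 (edgeR adjusted p = 0.0169), while Sf3b2 and Sf3b4 were not, at -0.03 and 0.04. Per length, Sf3b1 had 23.3 at 2 years and 50.5 at 12 weeks (CPM per kb of transcript), Sf3b6 43.6 at 2 years and 21.9 at 12 weeks, and Sf3b2 59.2 at 2 years and 60.4 at 12 weeks. These levels use the longest transcript, and the 2 annotated coding transcripts of Sf3b6 run from 334 to 1180 nt.

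Of the 3 SF3A genes 0 passed edgeR's test at an adjusted p below 0.05 and 1 had an unadjusted p below 0.05, Sf3a1, which was also called by DESeq2 (adjusted p = 0.0393). Sf3a1, the subunit that helps hold SF3A to the U2 snRNP, was at 75.01, 65.2, 66.6 and 83.2 CPM in 2 years replicates 1 to 4, against 61.5, 59.2, 60.0 and 60.3 CPM in 12 weeks replicates 1 to 4 (log2 fold change 0.27, SE 0.12, edgeR adjusted p = 0.0739). Its groups did not overlap, and it was called higher when 2 years replicate 3 was left out and also under the offset, at 0.46 (adjusted p = 0.00123). Sf3a2 and Sf3a3 had log2 fold changes of 0.08 and -0.07, and Sf3a3 was called lower under the offset, at -0.49 (adjusted p = 0.00922). The 3 U2AF genes were not called either, beside 6706 of all 13978 genes tested. U2af2, the large subunit that binds the polypyrimidine tract, was at 89.4, 99.4, 94.996 and 103 CPM in 2 years replicates 1 to 4, against 121, 94.2, 97.4 and 101 CPM in 12 weeks replicates 1 to 4 (log2 fold change -0.09, SE 0.12, edgeR adjusted p = 0.541). U2af1, the small subunit that reads the acceptor dinucleotide, was at 38.4, 40.3, 32.97 and 40.0 CPM in 2 years replicates 1 to 4, against 36.6, 41.2, 29.8 and 33.5 CPM in 12 weeks replicates 1 to 4 (log2 fold change 0.10, SE 0.13, edgeR adjusted p = 0.526). In both genes the groups overlapped. With the length and GC offset all 3 U2AF genes were called lower, where 28% of all genes were. U2af1 was then at -0.56 (edgeR adjusted p = 0.0143), U2af2 at -0.27 (adjusted p = 0.0279) and the U2af1 relative U2af1l4 at -0.52 (adjusted p = 0.00275). In GENCODE M21 exons of U2af1l4 overlap Gm49396 on the same strand, with a log2 fold change of -4.41, and Psenen on the opposite strand, at 0.80, so counts of U2af1l4 are uncertain.

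Of the 4 genes for proteins of the U1 or the U2 snRNP alone 2 rose and 0 fell, where 25.8% and 26.2% of all genes did. With the offset 1 was higher and 3 were lower, beside 22.8% and 28% of all genes. Snrpb2, the U2 protein B'', was at 47.6, 58.0, 60.5 and 40.6 CPM in 2 years replicates 1 to 4, against 29.5, 32.3, 25.7 and 26.9 CPM in 12 weeks replicates 1 to 4. Every 2-year library was above every 12-week library, a 1.81-fold increase (log2 fold change 0.85, SE 0.15, edgeR adjusted p = 0.000715) that stayed called with the offset, at 0.50 (adjusted p = 0.012). The annotated coding transcripts of Snrpb2 run from 636 to 2061 nt, and its value with the offset rests on the longest. Its relative Snrpa, the U1 protein A, was at 31.8, 31.0, 36.9 and 36.6 CPM in 2 years replicates 1 to 4, against 41.2, 35.4, 33.9 and 35.1 CPM in 12 weeks replicates 1 to 4, with groups that overlapped (log2 fold change -0.10, SE 0.12, edgeR adjusted p = 0.521). Snrpa shares exon sequence with BC024978 on the opposite strand in GENCODE M21, a gene with a log2 fold change of -1.49. The log2 ratio of Snrpb2 to Snrpa was 0.58, 0.90, 0.71 and 0.15 at 2 years, against -0.48, -0.13, -0.40 and -0.38 at 12 weeks, with no overlap (exact permutation p = 0.0286, adjusted 0.05). The difference of 0.93 became 1.02 with the offset (exact permutation p = 0.0286, adjusted 0.0667). Snrpa has 2 near-identical pseudogene copies, so its counts are uncertain. Snrpa1, the U2 protein A' and partner of Snrpb2, did not pass the test (log2 fold change -0.02, SE 0.12, edgeR adjusted p = 0.896). Snrpc, the U1 protein C that steadies donor site pairing, rose 1.29-fold (log2 fold change 0.37, SE 0.12, edgeR adjusted p = 0.0208), but its call was lost without 2 years replicate 2, without 12 weeks replicate 3 or 4, and with the replicate block (adjusted p = 0.0725), and its direction turned with the offset, to -0.43 (adjusted p = 0.0027).

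The Sm ring closes around the U1, U2, U4 and U5 RNAs. Of its 7 genes 5 rose and 0 fell, where 25.8% and 26.2% of all genes did. The ring's median log2 fold change was 0.83. With the offset 1 was higher and 0 lower, beside 22.8% and 28% of all genes, with a median of -0.05 for the ring. Snrpg was at 38.3, 52.0, 66.6 and 41.1 CPM in 2 years replicates 1 to 4, against 24.8, 17.6, 18.6 and 20.8 CPM in 12 weeks replicates 1 to 4. It had the largest increase of all members, 2.42-fold (log2 fold change 1.27, SE 0.19, edgeR adjusted p = 0.000231), and its log2 fold change was 0.47 (adjusted p = 0.0267) with the offset. Snrpe was at 31.6, 39.6, 43.9 and 28.9 CPM in 2 years replicates 1 to 4, against 19.7, 16.2, 15.6 and 16.9 CPM in 12 weeks replicates 1 to 4, an increase of 2.10-fold (log2 fold change 1.07, SE 0.16, edgeR adjusted p = 0.000215). On its transcript of 669 nt the log2 value under the offset was -0.01 (adjusted p = 0.96). For both genes the groups did not overlap. Snrpd1 was at 33.3, 39.7, 45.4 and 30.7 CPM in 2 years replicates 1 to 4, against 25.7, 26.4, 19.2 and 18.05 CPM in 12 weeks replicates 1 to 4 (log2 fold change 0.74, SE 0.17, edgeR adjusted p = 0.004), with a log2 value of -0.18 (adjusted p = 0.247) under the offset. Snrpd2 and Snrpf rose 1.81-fold and 1.78-fold. Snrpb, which gives the B proteins of the ring, was at 77.5, 81.0, 69.9 and 79.3 CPM in 2 years replicates 1 to 4, against 78.3, 46.4, 63.4 and 70.4 CPM in 12 weeks replicates 1 to 4, with groups that overlapped (log2 fold change 0.25, SE 0.16, edgeR adjusted p = 0.197), and Snrpd3 had a log2 fold change of 0.08 (adjusted p = 0.52). The 5 that rose had transcripts of 669 to 1420 nt and Snrpd3 one of 3036 nt. Summed over the ring, the level was 270.4, 308, 349 and 275 CPM in 2 years replicates 1 to 4, against 223, 179, 179.9 and 194 CPM in 12 weeks replicates 1 to 4. In CPM per kb of longest transcript, Snrpb had 66.3 at 2 years and 55.7 at 12 weeks and Snrpe 53.8 at 2 years and 25.6 at 12 weeks. Snrpd3 had 11.4 at 2 years and 10.8 at 12 weeks, the lowest of the ring at both ages, on transcripts annotated from 442 to 3036 nt.

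The nuclear LSM ring, Lsm2 to Lsm8, holds the end of the U6 RNA. Of its 7 genes 6 rose and 0 fell, where 25.8% and 26.2% of all genes did. The ring's median log2 fold change was 0.75. In all 7 the 2-year libraries were above the 12-week libraries, as they were in 24.3% of all genes. With the offset 1 was higher, Lsm6, and 1 lower, Lsm8, beside 22.8% and 28% of all genes. The ring's median was then -0.09. Lsm5 was at 11.7, 14.2, 15.8 and 9.48 CPM in 2 years replicates 1 to 4, against 7.34, 6.35, 5.59 and 4.34 CPM in 12 weeks replicates 1 to 4, a 2.16-fold increase (log2 fold change 1.11, SE 0.21, edgeR adjusted p = 0.0011). Its transcript of 494 nt is the shortest of all members, and its log2 fold change was -0.09 (adjusted p = 0.683) with the offset. Lsm3 was at 27.5, 35.0, 39.8 and 24.5 CPM in 2 years replicates 1 to 4, against 19.2, 19.1, 15.7 and 17.2 CPM in 12 weeks replicates 1 to 4 (log2 fold change 0.83, SE 0.16, edgeR adjusted p = 0.00153), with a log2 value of -0.18 (adjusted p = 0.149) under the offset. Lsm7, Lsm4, Lsm2 and Lsm6 rose 1.84-fold, 1.69-fold, 1.40-fold and 1.34-fold. Lsm8, which sets the nuclear ring apart from the cytoplasmic one, was not called (log2 fold change 0.24, SE 0.13, edgeR adjusted p = 0.144). The calls of Lsm2 and Lsm6 were lost when single libraries were left out, Lsm2 without 2 years replicate 1, 3 or 4 or without 12 weeks replicate 2 or 3, and Lsm6 without 2 years replicate 2 or 3 or without 12 weeks replicate 3 or 4. Without both replicates 3 the genes of the ring that rose numbered 3, Lsm2, Lsm4 and Lsm6 losing their calls. The annotated coding transcripts of Lsm6 run from 541 to 3792 nt, and its value with the offset rests on the longest.

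Of the 6 LSM genes outside this ring 1 rose and 2 fell, where 25.8% and 26.2% of all genes did. Their median log2 fold change was 0.11. Lsm1, which takes the place of Lsm8 in the cytoplasmic ring that starts mRNA decay, rose 1.47-fold (log2 fold change 0.55, SE 0.16, edgeR adjusted p = 0.0149), with a log2 value of 0.33 (adjusted p = 0.119) under the offset. Its call was lost without both replicates 3 (adjusted p = 0.0755). Lsm10 and Lsm11 replace a pair of Sm proteins in the U7 snRNP, which trims histone mRNA. Lsm11 was at 10.5, 8.83, 8.78 and 10.4 CPM in 2 years replicates 1 to 4, against 20.2, 14.6, 12.5 and 15.7 CPM in 12 weeks replicates 1 to 4. Its groups did not overlap, a 1.63-fold decrease (log2 fold change -0.71, SE 0.17, edgeR adjusted p = 0.00429). On its transcript of 6453 nt the log2 value under the offset was -0.31 (adjusted p = 0.132). Lsm10, with a transcript of 943 nt, was at 13.5, 16.8, 17.2 and 11.5 CPM in 2 years replicates 1 to 4, against 14.8, 8.59, 9.14 and 11.1 CPM in 12 weeks replicates 1 to 4 (log2 fold change 0.44, SE 0.20, edgeR adjusted p = 0.0876), and it was called higher without 12 weeks replicate 1 or 2 years replicate 4. The log2 ratio of Lsm11 to Lsm10 was -0.37, -0.92, -0.97 and -0.15 at 2 years, against 0.45, 0.76, 0.45 and 0.50 at 12 weeks (exact permutation p = 0.0286, adjusted 0.05). The difference of -1.14 became -0.0086 with the length and GC offset, where the groups overlapped (exact permutation p = 0.886). Lsm14b and Lsm14a, proteins of cytoplasmic mRNA granules, are relatives. Lsm14b was at 22.0, 19.4, 27.96 and 24.3 CPM in 2 years replicates 1 to 4, against 36.6, 35.8, 35.7 and 35.6 CPM in 12 weeks replicates 1 to 4, with no overlap. It fell 1.54-fold (log2 fold change -0.62, SE 0.13, edgeR adjusted p = 0.0021), with a log2 value of -0.84 (adjusted p = 0.000231) under the offset. Lsm14a had a log2 fold change of -0.04 (adjusted p = 0.83). The ratio of the pair overlapped between the ages (exact permutation p = 0.114, adjusted 0.133). Lsm12 was not called (log2 fold change 0.26, SE 0.15, edgeR adjusted p = 0.166).

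**Figure D4:**
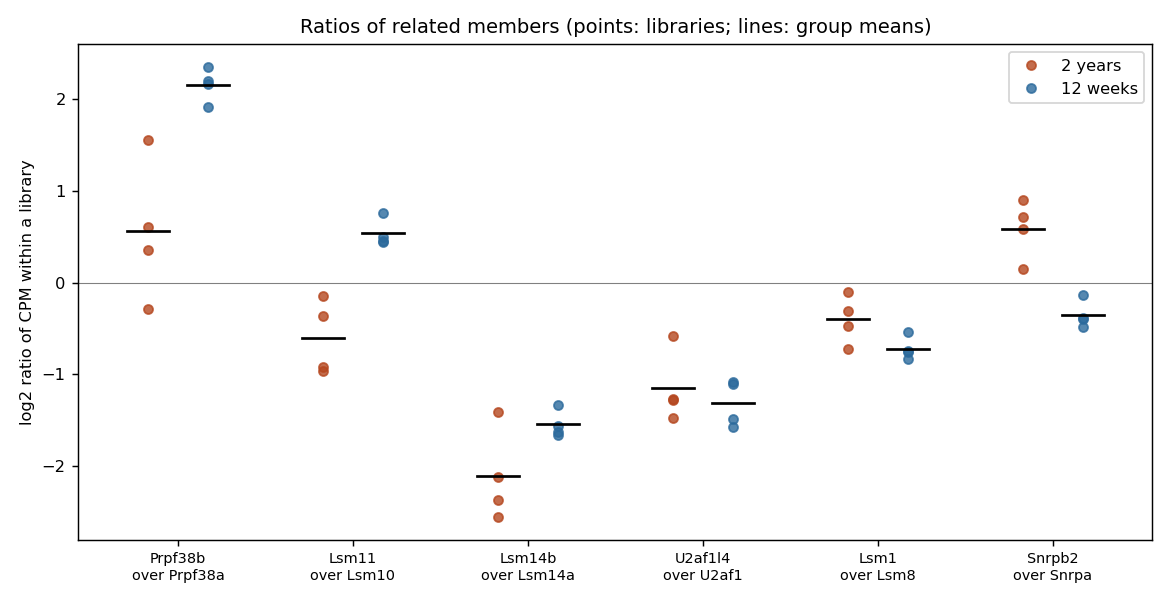
Log2 ratio of the CPM of 2 related members within each library (points; 2 years left, 12 weeks right; lines are group means) for 6 pairs on the x axis. The ages do not overlap for Prpf38b over Prpf38a, Lsm11 over Lsm10 and Snrpb2 over Snrpa; for Prpf38b over Prpf38a the means are 0.56 at 2 years and 2.16 at 12 weeks.

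The remaining pairs of related or alternative members showed smaller differences. The log2 ratio of Lsm1 to Lsm8 was -0.40 ± 0.27 at 2 years and -0.72 ± 0.12 at 12 weeks (SD, n = 4 each; exact permutation p = 0.0571, adjusted 0.08). With the offset the difference grew to 1.05 (exact permutation p = 0.0286, adjusted 0.0667). The offset rests on the longest transcript of each gene. The annotated coding transcripts run from 343 to 2663 nt for Lsm1 and from 503 to 807 nt for Lsm8, so this larger difference is uncertain. The log2 ratio of U2af1l4 to U2af1 was -1.15 ± 0.39 at 2 years and -1.31 ± 0.26 at 12 weeks (exact permutation p = 0.571, adjusted 0.571).

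Of the 5 PRPF genes of the tri-snRNP 1 fell and 0 rose, where 26.2% and 25.8% of all genes did. Prpf8, the large protein that cradles the catalytic RNA core, was at 262, 201, 170.3 and 298 CPM in 2 years replicates 1 to 4, against 211, 259, 244 and 256 CPM in 12 weeks replicates 1 to 4. The groups overlapped (log2 fold change -0.06, SE 0.18, edgeR adjusted p = 0.803), 2 years replicate 3 was the lowest, and with the offset the log2 fold change was 0.46 (adjusted p = 0.0214). The annotated coding transcripts of Prpf8 run from 3371 to 7442 nt, and its value with the offset rests on the longest. Prpf3, a U4 and U6 protein, was at 18.8, 13.05, 15.9 and 16.9 CPM in 2 years replicates 1 to 4, against 23.0, 25.5, 22.3 and 21.4 CPM in 12 weeks replicates 1 to 4. It fell 1.42-fold with no overlap (log2 fold change -0.51, SE 0.14, edgeR adjusted p = 0.00968), with a log2 value of -0.67 (adjusted p = 0.00143) under the offset. Prpf4 and Prpf31, which also sit on the U4 and U6 RNAs, and Prpf6, which bridges them to U5, had log2 fold changes of -0.21, 0.03 and -0.06 and were not called. Summed over the 5 genes the level was 297 to 428 CPM at 2 years and 337 to 399 CPM at 12 weeks.

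Other genes of the splicing pathway were listed for this comparison by function. Of 71 further spliceosome genes tested 14 rose and 16 fell (median log2 fold change 0.02), shares of 19.7% and 22.5% where 25.8% and 26.2% of all genes did. With the offset 5 were higher and 28 lower, shares of 7.04% and 39.4% beside 22.8% and 28% of all genes. The number that rose was 7 without 12 weeks replicate 3, and the number that fell was 10 without 12 weeks replicate 2. Srrm2, a large serine- and arginine-rich spliceosome protein, was at 94.9, 66.8, 141 and 151 CPM in 2 years replicates 1 to 4, against 739, 646, 561 and 523 CPM in 12 weeks replicates 1 to 4, with no overlap (log2 fold change -2.44, SE 0.25, edgeR adjusted p = 2.11e-05). Snrnp70, the U1-specific protein that binds the first stem of U1 RNA, was at 47.7, 40.0, 54.0 and 48.7 CPM in 2 years replicates 1 to 4, against 163, 142, 115 and 113 CPM in 12 weeks replicates 1 to 4, also with no overlap (log2 fold change -1.49, SE 0.15, edgeR adjusted p = 2.39e-05). With the offset Srrm2 was at -1.82 (adjusted p = 2.75e-05) and Snrnp70 at -1.74 (adjusted p = 5.91e-06). Rnpc3, a protein of the minor spliceosome, fell 3.24-fold and Srrm1 1.92-fold. Among the increases with the smallest p were those of Snrnp40 (1.64-fold), Snrnp25 (2.46-fold), Ppih (1.74-fold) and Ctnnbl1 (1.41-fold). With the offset Ctnnbl1 stayed called, at a log2 value of 0.35 (adjusted p = 0.0195), while Snrnp25 was at 0.50 (adjusted p = 0.0713), Snrnp40 at 0.22 (adjusted p = 0.089) and Ppih at 0.14 (adjusted p = 0.451).

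Of 19 genes listed for snRNP assembly and related steps 5 rose and 2 fell (median log2 fold change 0.17), shares of 26.3% and 10.5%. Of all genes 25.8% rose and 26.2% fell. With the offset 1 listed gene was higher and 5 were lower, shares of 5.26% and 26.3%, beside 22.8% and 28% of all genes. The list is broad, and not every gene on it acts in assembly itself. The increases with the smallest p were those of Naa38, an LSM-fold protein (1.88-fold), Gemin6 of the SMN complex (1.99-fold), Clns1a, which delivers Sm proteins for assembly (1.40-fold), and Strap (1.38-fold). Of these Strap was called with the offset, at 0.24 (adjusted p = 0.0357). Ints1, a subunit of the Integrator complex that processes snRNAs, fell 1.63-fold, with a log2 value of 0.06 (adjusted p = 0.718) under the offset, and Coil, the scaffold of Cajal bodies, fell 1.30-fold, a call that was lost with the replicate block (adjusted p = 0.117). The number of assembly genes that fell was 1 without 12 weeks replicate 1, 3 or 4 or without 2 years replicate 1 or 3.

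Near-identical gene copies limit some counts. Of the 49 members 14 had at least 1 annotated pseudogene that matched their longest transcript at 95% identity over 200 nt or more, among them Snrpg (2), Snrpe (1), Snrpd2 (2), Snrpf (1), Snrpc (3), Lsm5 (2), Lsm6 (3) and U2af1 (2). Of these pseudogenes 0 are listed in the count tables, and how reads with several matches were counted is not given in the sources used here, so counts of these genes are uncertain. Prpf39, Prpf40b, Prpf4b, Sf3b1, Sf3b6 and Snrpb2 had 0 such copies. In GENCODE M21 exons of 9 members overlap another listed gene (Prpf39, Sf3a2, Sf3b3, Snrpa, Snrpa1, Snrpd3, Snrpf, Lsm14a and U2af1l4). Of the 25 members called, 20 kept their call whichever libraries were left out, and 9 were called in the same direction in each alternative run: Prpf39, Prpf40b, Prpf4b, Prpf38b, Sf3b1, Prpf3 and Lsm14b, which fell, and Sf3b5 and Snrpb2, which rose. The runs with the offset used only the longest transcript, and shorter coding transcripts are annotated for some of these genes, Snrpb2 among them.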

How the data were processed

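The deposited tables hold raw counts per gene symbol, per the labels and the file headers, made on genome build GRCm39 per the submitters' processing notes. For the aligner, counter, annotation, library strand and multi-mapping reads, details were not given in the sources used here. RNA was extracted on columns and read on a NovaSeq sequencer, per the labels' protocols.

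All 8 libraries entered each fit. Genes that passed filterByExpr (13978 of 25526) went into edgeR's quasi-likelihood model (robust, TMM scaling, age as covariate), with Benjamini-Hochberg adjustment over all of them and calls made below an adjusted p of 0.05. The SE is the size of the log2 fold change divided by the square root of F. Log CPM used a prior count of 2. Length and GC share are those of the longest protein-coding transcript per symbol in GENCODE M21, on build GRCm38, found for 13622 tested genes (97.5%) and all 49 members; natural splines of 4 degrees of freedom on each formed the offset. Ratios had exact two-sided permutation tests over 70 assignments. Replicate libraries differed by more than counting noise (chi-square per degree of freedom of 22.5 to 144.6), and each counted as a sample. The alternatives were DESeq2 (size factors; Wald test), limma voom, no low-count filter, a replicate block, the offset with and without it, a prior count of 0.5 for the ratios, and leaving libraries out. The edgeR, limma voom and DESeq2 fits were tested on simulated counts with known fold changes. Those counts held no trend on length or GC share, so the offset was not tested on them.

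Members, lists and rules were chosen with earlier results of these data known. Values for each library are given for the 6 members with the smallest p in each direction, the leading member of each particle, 8 genes set by name, and ratio partners at the smallest permutation p. The values of 1 member, which enters the fits and counts, are not reported here. Software was Python 3.11.15 with scipy 1.17.1, BLAST 2.17.0 and R 4.3.3 with DESeq2 1.42.0, limma 3.58.1 and edgeR 4.0.16.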

Additional observations from a re-analysis of the deposited data

Results flagged for a closer look

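In 4 of 112 groups of 4 values looked at, the highest library lay far from the other three on Dixon's criterion, which by chance flags about 1 in 20 groups. Snrpd2 was highest in 2 years replicate 3, at 54.2 CPM. Its log2 fold change was 0.66 without that library and 0.85 with it. Sf3a2 was highest in 2 years replicate 4, at 37.2 CPM. Lsm12 was highest among 12-week libraries in replicate 1, at 32.6 CPM. The log2 ratio of Lsm11 to Lsm10 was highest among 12-week libraries in replicate 2, at 0.76. The cause was not tested.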

How the results depend on the processing

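The members that fell numbered 8 in each alternative without the length and GC offset. DESeq2 size factors, limma voom and no low-count filter changed no member's call or direction, and DESeq2's Wald test added Sf3a1. With the offset 9 members were higher and 15 lower (median log2 fold change -0.088), 5 other spliceosome genes were higher and 28 lower, and 1 assembly gene was higher and 5 lower. With the offset and the replicate block 5 members were higher and 14 lower (median -0.084), 4 other spliceosome genes were higher and 21 lower, and 0 assembly genes were higher and 5 lower. With no low-count filter 1 assembly gene was lower. When 1 library or both replicates 3 were left out, members that rose ranged from 12 (without both replicates 3) to 18, their median from 0.11 (without both replicates 3) to 0.22, other spliceosome genes that rose from 7 to 13 and that fell from 10 to 22, and assembly genes that rose from 4 to 5 and that fell from 1 to 2. Offset values rest on the longest annotated transcript.

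The labels give no pairing of libraries by replicate number. Same-numbered libraries deviated from their group means with correlations of -0.308 to 0.0511, and 0 of 4 matched its own number best. With 4 libraries per group this check cannot exclude a batch shared by libraries of the same number. With the replicate block 15 members rose and 8 fell, Lsm6 and Snrpc losing their call, 9 other spliceosome genes rose and 1 assembly gene fell. For the ratios, sign flips within a number allow no p below 0.125.

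Direction turned for some members. With the offset, which takes out what follows length and GC share, log2 fold changes were Lsm10 -0.28, Lsm12 -0.066, Lsm2 -0.34, Lsm3 -0.18, Lsm5 -0.088, Lsm8 -0.72, Prpf19 0.31, Prpf31 -0.049, Prpf8 0.46, Snrpb -0.24, Snrpc -0.43, Snrpd1 -0.18, Snrpd3 -0.051, Snrpe -0.0080, Snrpf -0.068, U2af1 -0.56 and U2af1l4 -0.52. With the offset and the replicate block they were Lsm10 -0.28, Lsm12 -0.084, Lsm2 -0.34, Lsm3 -0.19, Lsm5 -0.070, Lsm8 -0.72, Prpf19 0.31, Prpf31 -0.050, Prpf8 0.44, Snrpb -0.25, Snrpc -0.43, Snrpd1 -0.17, Snrpd3 -0.053, Snrpe -0.0019, Snrpf -0.083, U2af1 -0.57 and U2af1l4 -0.52. When libraries were left out, log2 fold changes crossed 0 for Lsm14a from -0.13 to 0.090, Prpf19 from -0.11 to 0.014, Prpf31 from -0.022 to 0.067, Prpf6 from -0.13 to 0.012, Prpf8 from -0.20 to 0.077, Sf3a3 from -0.16 to 0.0045, Sf3b2 from -0.10 to 0.047 and Snrpa1 from -0.077 to 0.038, and the difference in the log2 ratio of U2af1l4 to U2af1 ran from -0.032 to 0.27; the cause was not tested.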
